A study of Homo sapiens with 2 samples.

Results

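The nuclear-encoded respiratory chain genes were taken as the protein-coding genes whose symbols start with NDUFA, NDUFB, NDUFC, NDUFS, NDUFV, UQCR, COX4I, COX5, COX6, COX7, COX8 or ATP5, together with SDHA, SDHB, SDHC, SDHD and CYC1. The rule used symbols alone and no measured value, and it found 99 of the 58884 genes listed in each library. Of these, 45 belong to complex I, 4 to complex II, 10 to complex III, 19 to complex IV and 19 to complex V, and 2 are read-through genes assigned to no complex. NDUFA4 and its isoform NDUFA4L2 were placed with complex IV, where the protein is now assigned. The rule also takes in 8 complex I assembly factors, the NDUFAF genes, which help to build the enzyme and are not part of it.

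The cells were T24/R, a human bladder line that grows attached, and their polyadenylated RNA was sequenced. One group received the solvent DMSO and the other 1600 nM THZ1, a covalent inhibitor of the transcriptional kinase CDK7 that also acts on CDK12 and CDK13, each for 6 h. There was 1 library per group, so no difference can be set against a spread between replicates, and no test was run. The labels name no other difference between the cultures, and a single line limits what they stand for.

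The respiratory chain of the inner mitochondrial membrane passes electrons from NADH (complex I) and succinate (complex II) through complex III and cytochrome c to oxygen (complex IV). Complexes I, III and IV pump protons, and complex V, the ATP synthase, uses the gradient to make ATP. Complex II is encoded entirely in the nucleus, whereas the other complexes combine nuclear-encoded subunits with subunits encoded in mitochondrial DNA. Most nuclear subunits of complexes I, III and IV are small accessory proteins around a conserved catalytic core.

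The DMSO library held 18445831 counts and the THZ1 library 18313827. Genes of the mitochondrial chromosome took 8.75% of the DMSO counts and 19.9% of the THZ1 counts. Over the 12457 genes that reached 30 counts in either library, the median log2 ratio of THZ1 over DMSO was −0.03, with quartiles of −0.83 and 0.55. Of 10 urothelial markers, UPK3A, UPK1B and KRT20 had 0 counts in both libraries and only FOXA1 and TP63 reached 30 counts, so the bladder origin in the label was not visible in these markers. The epithelial keratin gene KRT18 had 696 counts in DMSO and 494 in THZ1, whereas EPCAM (0 and 3) and CDH1 (2 and 3) were at or under the floor of 3 counts. Immune markers summed to 1 count in each library and endothelial markers to 3. Fibroblast markers summed to 73 and 95 counts, with COL1A2 at 0 in both, COL1A1 at 30 and 20, and LUM at 34 and 69 counts and higher by the rule given below (log2 ratio 1.54), and their part in the results was not tested.

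The upstream sequences of 4 genes are shown because they belong to the member with the highest ratio (COX6A1), the member with the lowest (NDUFAF4), a complex II gene holding both a nuclear respiratory factor 1 motif and an ETS motif (SDHD), and a complex I accessory gene holding the former (NDUFB4). Each is the 250 bases before the gene's start in RefSeq (GRCh38.p14), written 5′ to 3′ on the gene's strand. Capitals mark the palindromic site of nuclear respiratory factor 1, which is the run of capitals in the NDUFB4 sequence and the first run in that of SDHD, and CCGGAAG or its reverse complement CTTCCGG, the core site of ETS factors such as GABP. The regions are chr12:120437863-120438112 (plus strand) for COX6A1, chr6:96897892-96898141 (minus strand) for NDUFAF4, chr11:112086623-112086872 (plus strand) for SDHD and chr3:120596086-120596335 (plus strand) for NDUFB4.
COX6A1: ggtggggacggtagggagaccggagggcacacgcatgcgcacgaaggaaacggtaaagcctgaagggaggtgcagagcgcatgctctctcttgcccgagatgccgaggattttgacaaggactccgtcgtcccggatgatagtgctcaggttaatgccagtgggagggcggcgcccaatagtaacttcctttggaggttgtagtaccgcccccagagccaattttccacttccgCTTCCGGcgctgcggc
NDUFAF4: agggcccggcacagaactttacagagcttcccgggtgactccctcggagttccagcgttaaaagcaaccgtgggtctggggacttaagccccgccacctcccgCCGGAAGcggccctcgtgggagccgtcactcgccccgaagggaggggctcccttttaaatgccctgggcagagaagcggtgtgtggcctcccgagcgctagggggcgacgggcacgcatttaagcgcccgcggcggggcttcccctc
SDHD: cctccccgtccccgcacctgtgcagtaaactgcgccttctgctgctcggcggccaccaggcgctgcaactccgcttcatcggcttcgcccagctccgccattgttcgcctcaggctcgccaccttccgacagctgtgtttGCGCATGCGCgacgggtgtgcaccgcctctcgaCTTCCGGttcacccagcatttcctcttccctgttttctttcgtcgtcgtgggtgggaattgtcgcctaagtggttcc
NDUFB4: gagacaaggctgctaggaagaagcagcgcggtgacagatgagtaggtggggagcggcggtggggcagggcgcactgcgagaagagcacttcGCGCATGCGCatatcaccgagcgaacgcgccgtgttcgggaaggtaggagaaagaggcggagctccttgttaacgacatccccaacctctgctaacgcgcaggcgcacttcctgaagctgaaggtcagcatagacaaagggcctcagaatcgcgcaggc

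A promoter window from 250 bases before to 50 bases after the start was given for 78 of the 99 genes. The nuclear respiratory factor 1 motif stood in 5 of them (6.41%), against 1.52% of the windows of 27305 genes and 2.89% of those of other tested protein-coding genes. The 5 genes were NDUFAF5, NDUFA8, NDUFB4, SDHD and ATP5F1C, of which NDUFB4 and ATP5F1C were higher in the THZ1 library. Of the 66 tested members without this motif, 35 were higher. The ETS motif, searched on both strands, stood in 23 windows (29.5%), against 12.2% of all windows and 24.3% of those of other tested coding genes. The motif AAGATGGC of the factor YY1, on both strands, stood in 13 windows (16.7%), against 3.52% and 6.94%. TATAAA, the TATA box letters on the gene's strand, stood in 4 windows (5.13%), against 8.99% and 5.01%. The median log2 ratio was 1.20 for the 22 tested members with an ETS motif and 0.98 for the 49 without, 1.25 for the 12 with a YY1 motif and 1.04 for the 59 without, and 0.89 for the 5 with a nuclear respiratory factor 1 motif and 1.12 for the 66 without. A match of letters does not show that a factor binds there, and the differences between these medians were not tested.

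Relative to the bulk of genes, respiratory chain mRNAs stood higher in the THZ1 library, in each of the 5 complexes. A gene was called higher or lower where the TMM-scaled ratio was at least 2-fold and its 95% counting interval excluded 1. Of the 88 members that reached 30 counts in either library, 49 were higher and 0 lower (55.7% higher), against 9.7% higher and 21.3% lower over all tested genes and 7.61% and 22% over tested protein-coding genes. The other 39 were neither, and 84 of the 88 had a log2 ratio above 0. Their median log2 ratio was 1.11, with a range of −0.95 to 2.86, which is 1.13 above the median of all tested genes. UQCRHL and NDUFA4L2 passed the count minimum only through the THZ1 library, and without them 47 of 86 were higher.

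All of these ratios depend on the scaling, since counts give shares of a library and not amounts of RNA in a cell. In a bulk culture, fewer cells and less RNA per cell cannot be told apart. Scaling to total counts shifted the median of all genes by −0.51 and left 19 members higher and 2 lower, against 2.95% higher and 34.2% lower over all genes. Scaling to the mitochondrially encoded mRNAs shifted it by −1.69 and left 1 member higher and 27 lower, against 0.706% and 80.3% over all genes. The position of a member relative to all genes does not move with the scaling, and each direction given below for a member is on the TMM scaling. Of the 49 higher members, 37 fall below 0 on the mitochondrial scaling. As a share of all counts, the 99 genes took 0.63% in DMSO (exact interval 0.626% to 0.634%) and 0.938% in THZ1 (0.933% to 0.942%).

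The complexes overlapped widely and differed in how many of their members were higher. Complex IV had 11 of 13 tested members higher, with a median log2 ratio of 1.47 and a range of 0.48 to 2.86. Complex V had 12 of 18 higher (median 1.19, range 0.27 to 1.89) and complex III 6 of 10 (median 1.19, range 0.21 to 1.80). Complex I had 19 of 43 higher (median 0.88, range −0.95 to 1.98). Complex II had 1 of 4 (median 0.88, range 0.24 to 1.07). With total counts the numbers higher were 7 for complex I, 0 for complex II, 2 for complex III, 5 for complex IV and 5 for complex V. Without the members whose exons are overlapped by another gene over more than 10% of their length, complex V had 4 of 10 higher with a median of 0.79, below the 0.90 of complex I (12 of 26). Complexes III and IV then had 4 of 8 (median 0.94) and 9 of 11 (median 1.47), and complex II 1 of 3 (median 0.87). Complex V thus moved from above complex I to the lowest median, whereas complex IV had the highest median in both sets. Without NDUFA4L2 complex IV had 10 of 12 higher (median 1.41), and without UQCRHL complex III 5 of 9 (median 1.18). The differences between complexes were not tested, since genes are not replicates of a condition.

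**Figure D1:**
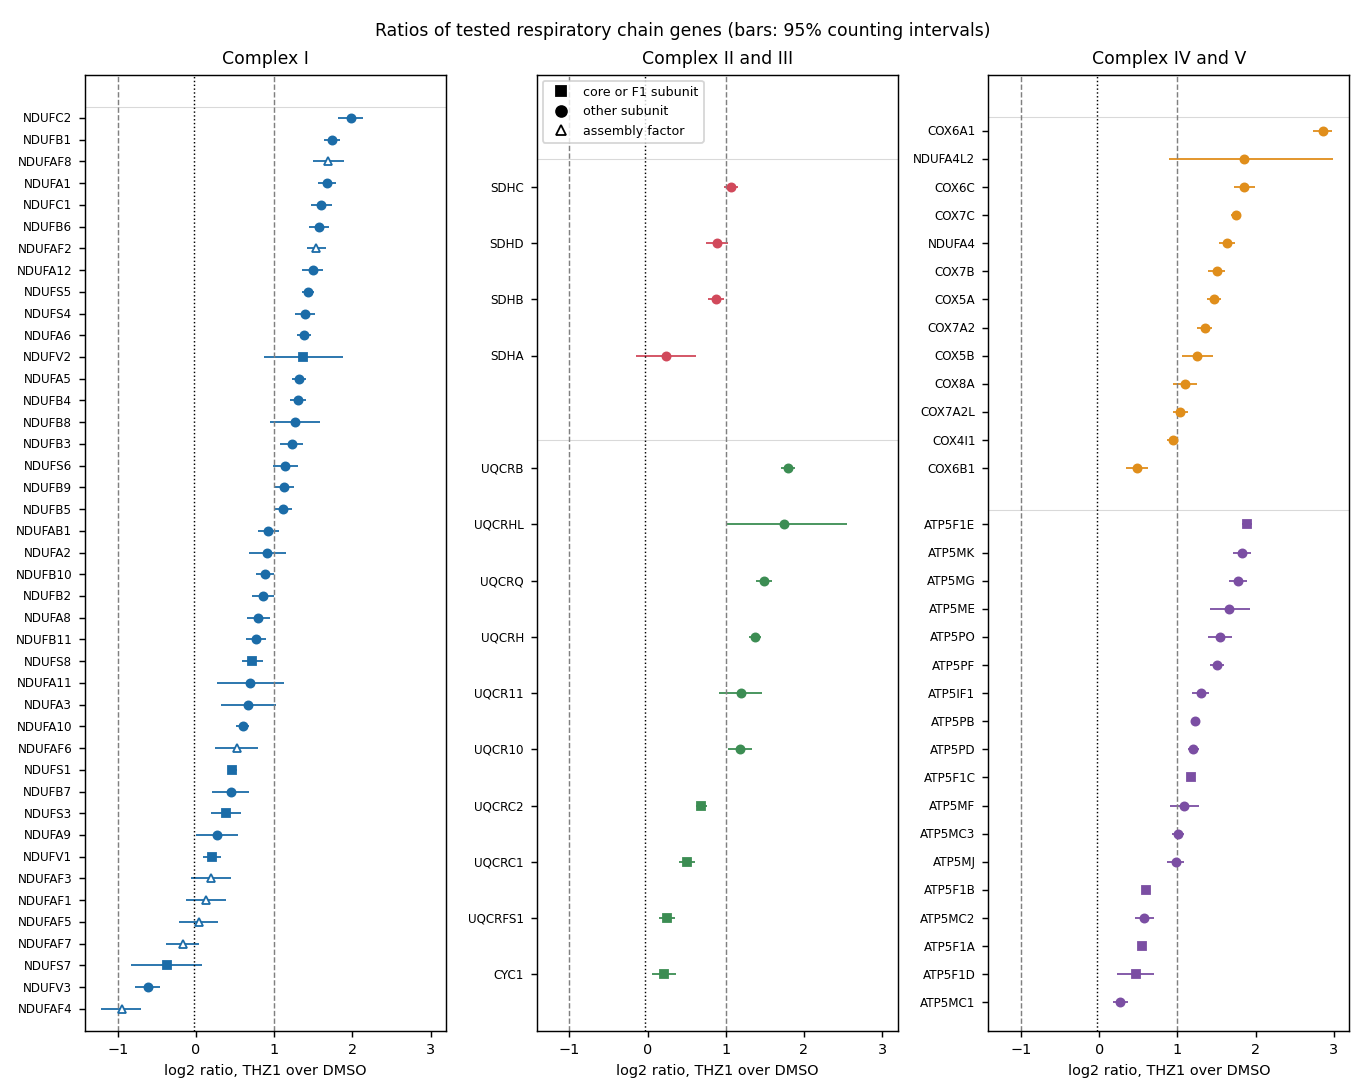
The log2 ratio of THZ1 over DMSO (x axis, TMM scaling) is drawn for 87 of the 88 tested genes (y axis), by complex. Points are 1 library against 1 with 95% counting intervals as bars, squares are core or F1 subunits, open triangles assembly factors and circles other subunits (with ATP5IF1 and COX7A2L), the dotted line is the median of all tested genes (−0.03) and the dashed lines mark 2-fold. Complex IV lies furthest to the right, and the 4 core subunits of complex III lie below all 6 accessory ones.

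Within complex I, the 7 nuclear core subunits, which carry the flavin and iron-sulphur clusters, had lower ratios on the whole than the accessory subunits, a difference that was not tested. Of the 7 core subunits, 1 was higher, with a median log2 ratio of 0.46, whereas 16 of 28 tested accessory subunits were higher, with a median of 1.13. NDUFS1, which holds several iron-sulphur clusters and is the longest core subunit, had 4892 counts in DMSO and 4680 in THZ1, a log2 ratio of 0.46 (0.40 to 0.52). The raw counts were nearly level, and the ratio above 0 came with the scaling. NDUFV1, the subunit that binds NADH and FMN, gave 1289 and 1033 counts and a ratio of 0.21 (0.09 to 0.33). NDUFS3 (457 and 414 counts) stood at 0.38 and NDUFS8 (910 and 1043 counts) at 0.72.

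NDUFS7 and NDUFV2 had few counts. NDUFS7, which carries the last iron-sulphur cluster before ubiquinone, had 123 counts in DMSO and 66 in THZ1, a ratio of −0.37 with an interval of −0.83 to 0.07. Antisense genes overlapped 49.1% of its exonic bases. NDUFV2, a partner of NDUFV1 in the NADH-oxidising module, was the single core subunit called higher, on 54 and 97 counts (1.36, 0.88 to 1.88). Its listed pseudogene held 14 and 10 counts, and an unnamed transcript on the same strand overlapped 28.4% of its exonic bases. Summing gene and pseudogene gave 1.18.

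The accessory subunits of complex I surround the core and stabilise it. NDUFC2, of the membrane arm, rose from 425 to 1164 counts, a log2 ratio of 1.98 (1.82 to 2.14), the highest among the tested members of complex I. The read-through gene NDUFC2-KCTD14, whose exons overlap it, had 0 counts in both libraries. NDUFB1 rose from 1116 to 2581 counts (1.73, 1.63 to 1.84). NDUFA1, a small X-linked membrane subunit, rose from 835 to 1854 counts (1.68, 1.56 to 1.80), although exons of RNF113A on the opposite strand cover 44.5% of its exonic bases. By symbol, with core subunits counted, both NDUFC genes were higher, as were 7 of 11 tested NDUFB genes and 4 of 11 tested NDUFA genes. Of the NDUFS genes 3 of 8 were higher, and of the NDUFV genes 1 of 3. The 3 higher NDUFS genes (NDUFS4, NDUFS5 and NDUFS6) are accessory, and the other 5 are core subunits.

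At the other end, NDUFV3, a partner of the NADH-oxidising module, had 1010 counts in DMSO and 456 in THZ1, a log2 ratio of −0.62 (−0.78 to −0.46). It was the only tested accessory subunit with a ratio below 0, and it missed the 2-fold threshold on the TMM scaling but passed it with total counts, at −1.14. NDUFA9, which binds NADPH, gave 251 and 210 counts (0.27, −0.0035 to 0.54) and NDUFB7 gave 320 and 302 (0.44, 0.21 to 0.67). NDUFA13 (20 and 13 counts) and NDUFA7 (10 and 12 counts) did not reach 30 counts in either library. Same-strand genes overlap both, and how the counting treated reads shared by overlapping genes is not given in the sources used here.

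The complex I assembly factors spread from −0.95 to 1.69, with 2 of 8 higher and a median of 0.16. NDUFAF4, which acts early in building the complex, had 494 counts in DMSO and 177 in THZ1, a log2 ratio of −0.95 (−1.21 to −0.70), the lowest of the tested members. It lies at chr6:96889313-96897881 on the minus strand (GRCh38). Its 1.94-fold difference fell short of the rule on TMM scaling, whereas with total counts it was called lower at −1.47, and it was also called lower with a count minimum of 1. NDUFAF7, a methyltransferase, stood at −0.17 (500 and 309 counts). NDUFAF8 rose from 312 to 701 counts (1.69, 1.50 to 1.89) and NDUFAF2 from 767 to 1550 (1.54, 1.41 to 1.67). NDUFAF1, NDUFAF3 and NDUFAF5 lay between 0.03 and 0.19 with intervals that included 0, and NDUFAF6 gave 0.52.

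Complex II, which is also an enzyme of the citric acid cycle, has 4 subunits and no mitochondrially encoded one. SDHC, a membrane anchor that helps to bind haem and ubiquinone, rose from 1723 to 2509 counts (1.07, 0.98 to 1.16). The other anchor, SDHD, gave 724 and 932 counts (0.89, 0.75 to 1.03), and the iron-sulphur subunit SDHB 1325 and 1684 (0.87, 0.77 to 0.98). These 3 lay close together, on both sides of the 2-fold threshold. SDHA, the flavoprotein that oxidises succinate, had 132 and 108 counts and a ratio of 0.24 (−0.14 to 0.61). Its 4 listed pseudogenes held more counts than the gene, 713 in DMSO and 370 in THZ1, and gene and pseudogenes together gave −0.30. Reads of near-identical copies can be shared or lost, so the SDHA value is uncertain.

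Complex III divided by role without overlap. CYC1, cytochrome c1, had 840 counts in DMSO and 675 in THZ1, a log2 ratio of 0.21 (0.06 to 0.36). UQCRFS1, the Rieske iron-sulphur protein, gave 1695 and 1399 counts (0.25, 0.15 to 0.35). The large core proteins UQCRC1 (1733 and 1708 counts) and UQCRC2 (2841 and 3181 counts) stood at 0.50 and 0.69. None of these 4 was higher, and their median was 0.38.

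All 6 tested accessory members of complex III were higher, with a median log2 ratio of 1.43 and a range of 1.18 to 1.80, which does not overlap the core range. Without UQCRHL, which passed the count minimum only through the THZ1 library, 5 of 5 were higher with a median of 1.37 and the same range. UQCRB, which lies near a ubiquinone site, rose from 1409 to 3410 counts (1.80, 1.71 to 1.89). UQCRQ rose from 1190 to 2321 (1.49, 1.39 to 1.59) and UQCRH, the hinge protein between cytochromes c1 and c, from 2008 to 3612 (1.37, 1.29 to 1.45). UQCRHL, a copy of UQCRH with the same coding length of 91 codons, had 22 and 52 counts (1.75, 1.02 to 2.56), and reads of the pair may not be separable. UQCR11 stood at 1.19 and UQCR10 at 1.18.

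In complex IV, the nuclear subunits surround 3 catalytic proteins made in mitochondria. Of 11 ubiquitously expressed nuclear subunits, 9 were higher, with a median log2 ratio of 1.47. COX6A1, a regulatory subunit with a muscle counterpart, rose from 665 to 3359 counts, a ratio of 2.86 (2.74 to 2.98) or 7.26-fold, the highest of the tested members. It lies at chr12:120438090-120440742 on the plus strand (GRCh38). It was the one member still higher on the mitochondrial scaling. Its 7 listed pseudogenes held 7 and 18 counts, and the sum with them gave 2.85. The unnamed coding gene that overlaps 13.02% of its exonic bases had 0 counts in both libraries.

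COX6C rose from 615 to 1546 counts (1.85, 1.72 to 1.99), COX7C from 2964 to 6942 (1.75, 1.69 to 1.82) and NDUFA4 from 1141 to 2453 (1.63, 1.53 to 1.73). COX7C had the most counts per kb of annotated exon among the complex IV members in both libraries. That length sums all annotated isoforms, and the rank depends on it. COX4I1 had more counts than COX7C in DMSO. COX5A, a subunit on the matrix side, gave 1386 and 2664 counts (1.47, 1.37 to 1.56). The lowest ratios among its tested members were those of COX6B1 (0.48, 0.34 to 0.62; 852 and 828 counts), which faces the intermembrane space, and COX4I1 (0.94, 0.87 to 1.005; 3237 and 4311 counts), the regulatory subunit 4 isoform found in most tissues. COX8A gave 1.10 and COX7A2 1.35, with COX5B at 1.25 and COX7B at 1.50. COX7A2L, which joins complexes III and IV into supercomplexes, rose from 1565 to 2232 counts (1.04, 0.94 to 1.13).

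The tissue-restricted isoforms of complex IV were at or near 0. COX4I2, COX6A2 and COX7B2 had 0 counts in both libraries, where 3 counts correspond to 0.136 CPM in DMSO and 0.196 CPM in THZ1. COX7A1, the heart and muscle counterpart of COX7A2, had 2 and 0 counts, and COX8C had 0 and 2. COX6B2, a testis form, had 2 and 6 counts. NDUFA4L2, an isoform of NDUFA4 that low oxygen induces, had 12 and 31 counts, a ratio of 1.86 with an interval of 0.89 to 2.99. In each complex IV pair the ubiquitous isoform held nearly all counts of both libraries.

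In complex V the ranges of the F1 subunits (0.47 to 1.89) and of the stalk and membrane genes (0.98 to 1.83) overlapped. ATP5F1A and ATP5F1B form the catalytic hexamer, and their raw counts were nearly level between libraries. ATP5F1A had 9356 and 9515 counts (0.55, 0.51 to 0.59) and ATP5F1B 7315 and 7678 (0.60, 0.55 to 0.64). The central stalk gene ATP5F1C rose from 6024 to 9434 counts (1.17, 1.13 to 1.22). ATP5F1D gave 298 and 286 counts (0.47, 0.23 to 0.70). ATP5F1E, the smallest F1 subunit at 51 codons, rose from 2507 to 6451 counts (1.89, 1.82 to 1.96), the highest ratio among the tested genes of the complex.

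Of the 9 tested genes of the peripheral stalk and membrane part, 8 were higher, with a median log2 ratio of 1.50. Of these 9, 7 have over 10% of their exonic bases overlapped by another gene and all 7 were higher, while of the other two ATP5MF was higher and ATP5MJ was not. ATP5MK rose from 859 to 2117 counts (1.83, 1.71 to 1.94), ATP5MG from 814 to 1936 (1.77, 1.66 to 1.90) and ATP5ME from 182 to 402 (1.67, 1.41 to 1.93). Exons of MYL5 on the opposite strand cover 61.6% of the exonic bases of ATP5ME. ATP5PB, the long peripheral stalk subunit, rose from 8016 to 13069 counts (1.23, 1.19 to 1.27). ATP5MJ stood just under 2-fold at 0.98. ATP5IF1, the inhibitor that blocks ATP hydrolysis by the enzyme, rose from 1047 to 1790 counts (1.30, 1.19 to 1.41).

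ATP5MC1, ATP5MC2 and ATP5MC3 encode the same mature c-ring protein with different import sequences. ATP5MC1 had 1955 and 1639 counts (0.27, 0.18 to 0.37), the lowest ratio among the tested genes of complex V. ATP5MC2 gave 1170 and 1213 counts (0.58, 0.46 to 0.69) and ATP5MC3 rose from 2259 to 3155 (1.01, 0.93 to 1.09). The 3 intervals do not overlap, and ATP5MC3 was barely past 2-fold. ATP5MGL had 3 and 2 counts and the read-through gene ATP5MF-PTCD1 had 0 in both.

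Levels were compared between genes as CPM per kb of exon. NDUFS5, an accessory subunit of complex I, had the highest level of the tested members, 179.9 in DMSO and 484.0 in THZ1. It was followed in DMSO by 3 genes of complex V, ATP5F1B (142.9), ATP5F1C (117.5) and ATP5PB (107.5). This order depends on the length used. The exonic length of NDUFS5 equals that of its longest coding transcript (548 bases), whereas for ATP5F1C the lengths are 2326 and 1163 bases. The median level of the tested members was 16.6 in DMSO and 33.1 in THZ1. By complex the median DMSO levels were 10.3 for complex I, 8.54 for complex II, 23.2 for complex III, 22.4 for complex IV and 21.8 for complex V. The 4 core genes of complex III lay within 19.3 to 24.7 in DMSO and within 22.3 to 39.8 in THZ1. All 10 members of complex III together spanned 0.458 to 64.7 in DMSO, and the tested members of complex I 0.741 to 179.9. Subunits of one complex were thus spread over a wide range of mRNA level per length, and exonic length sums all annotated isoforms.

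**Figure D2:**
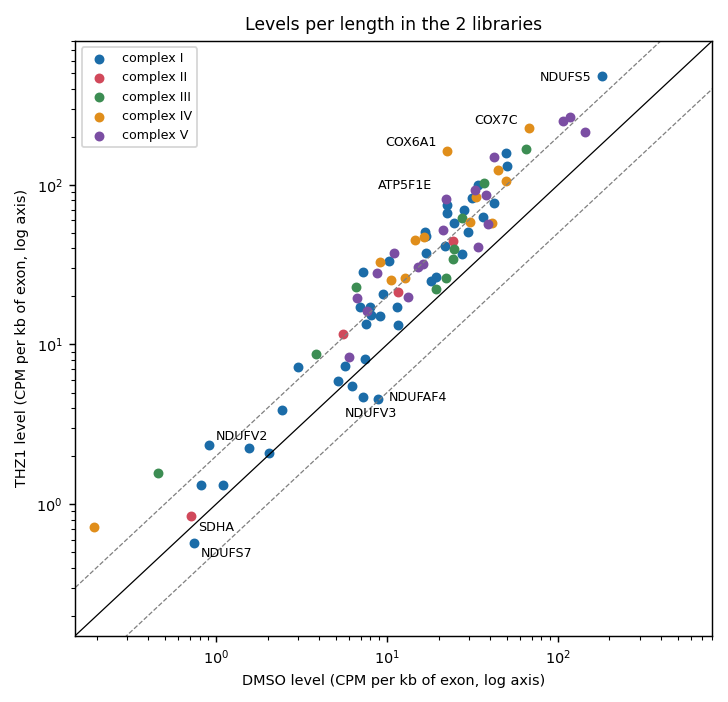
Levels of the 88 tested genes in DMSO (x axis) and THZ1 (y axis), in CPM per kb of exon on log axes with TMM scaling, 1 point per gene coloured by complex. The solid line marks equal levels and the dashed lines 2-fold, and most points lie above the solid line, from NDUFA4L2 at the bottom left to NDUFS5 at the top right (179.9 and 484.0).

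Members with short coding sequences had the higher ratios. Coding length, the number of codons of the longest coding transcript in GENCODE 29 without the stop codon, was looked at after the ratios were seen. Of the 41 tested members with fewer than 150 codons, 34 were higher, against 3 of the 22 with 250 or more. Under 100 codons 19 of 23 members were higher, against 34% of the other tested coding genes of that length. The 19 include UQCRHL (91 codons) and NDUFA4L2 (93 codons), which passed the count minimum only through the THZ1 library. Both are also part of the medians and correlations given below for the members. From 100 to under 150 codons 15 of 18 were higher, against 28.3%, and from 150 to under 250 codons 12 of 25, against 12%. From 250 to under 500 codons 3 of 18 were higher (NDUFV2, ATP5F1C and ATP5PB), against 6.04%, and at 500 or more 0 of 4, against 4.17%. No member was lower in any class, whereas 8.64%, 10.6%, 13.4%, 22.4% and 25.6% of the other coding genes were lower, from the shortest class to the longest.

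In every length class the median of the members lay above that of the other coding genes, for example 1.50 against 0.72 under 100 codons and 0.42 against −0.06 from 250 to under 500. Across the 88 members, Spearman's rho between log2 ratio and coding length was −0.68, and it was −0.66 across the 35 tested subunits of complex I and −0.19 across 10786 other tested coding genes. These are descriptions across genes of the same 2 libraries, and genes are not independent replicates. The corresponding rho over the members was −0.31 for mRNA length, −0.47 for the number of exons, −0.29 for GC content, −0.20 for gene span and −0.00 for the length of the 3′ UTR. The complexes differ in the same property, with median coding lengths of 93 codons for complex IV, 126 for complex III, 139 for complex V, 172 for complex I and 224.5 for complex II. Core subunits of complexes I and III had medians of 264 and 389 codons, and their accessory subunits 149.5 and 86.5. Role, complex and coding length therefore cannot be told apart in these counts.

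**Figure D3:**
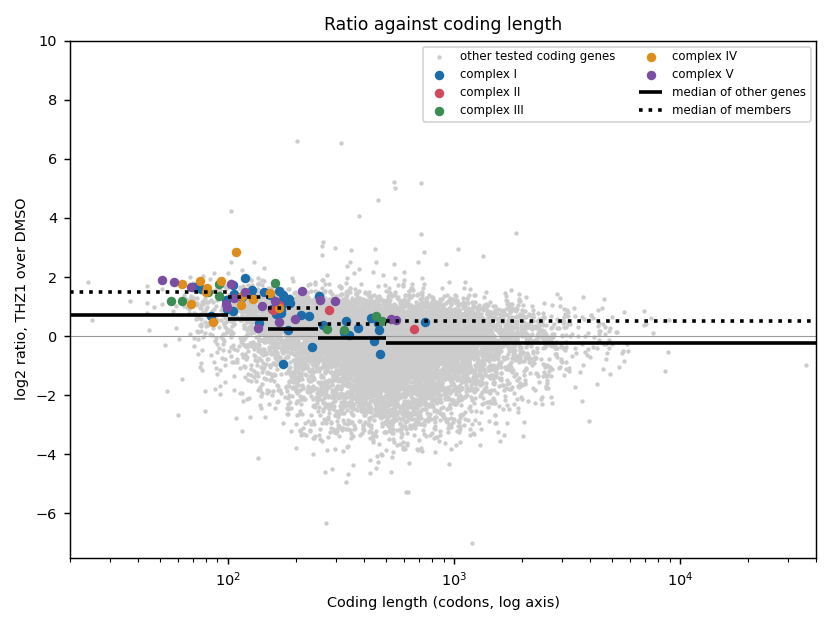
The log2 ratio of THZ1 over DMSO (y axis, TMM scaling) is plotted against coding length in codons (x axis, log scale) for the tested members, coloured by complex, and for other tested coding genes in grey. Solid lines are medians of the other genes and dotted lines medians of the members in each of 5 length classes, and both fall from the shortest class (0.72 and 1.50) to the class of 250 to under 500 codons (−0.06 and 0.42). At 500 or more codons the medians are −0.22 for the other genes and 0.51 for the 4 members.

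The 13 protein-coding genes of mitochondrial DNA, which are transcribed by a separate polymerase, were all higher, with a median log2 ratio of 1.64 and a range of 1.24 to 2.25. In complex I the 7 mitochondrially encoded subunits had a median of 1.67, and 30 of the 35 tested nuclear subunits lay below the lowest of them. MT-CYB, the cytochrome b of complex III, stood at 1.52, above 8 of the 10 nuclear members. The 2 above it were UQCRB and UQCRHL, and UQCRHL passed the count minimum only through the THZ1 library. In complex IV the median of MT-CO1, MT-CO2 and MT-CO3 was 1.64 beside a nuclear median of 1.47, and 7 of 13 nuclear members lay below all 3. The 13 include NDUFA4L2, which also passed the minimum only through THZ1. In complex V MT-ATP8 (1.24) and MT-ATP6 (1.74) enclosed 4 of 18 nuclear members, with 11 below and 3 above. How the counting treated reads shared by overlapping or jointly transcribed mitochondrial genes is not given, so the values of single mitochondrial genes used as bounds here are uncertain.

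**Figure D4:**
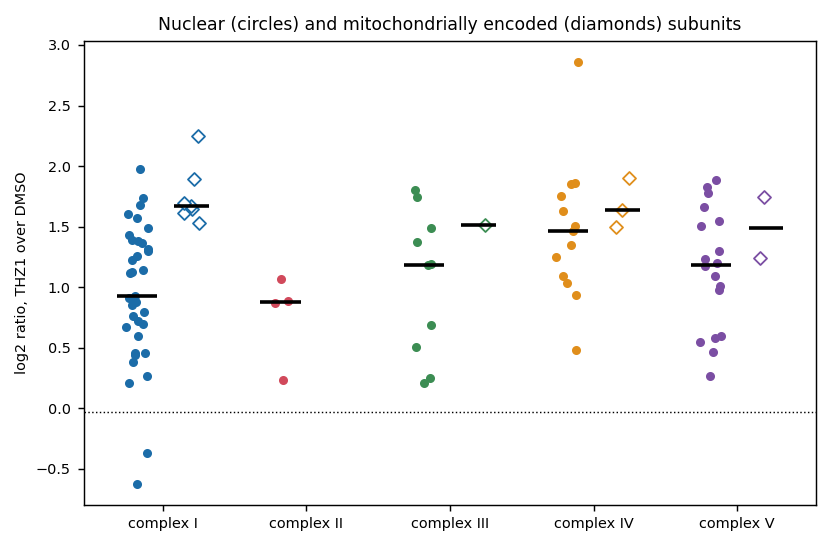
The log2 ratio of THZ1 over DMSO (y axis, TMM scaling) for tested nuclear-encoded members (filled circles, with ATP5IF1 and COX7A2L) and mitochondrially encoded subunits (open diamonds) of each complex (x axis), without assembly factors. Bars are medians and the dotted line is the median of all tested genes, and complex II has no mitochondrially encoded subunit. The medians lie furthest apart in complex I (0.92 and 1.67).

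Genes that work with the chain are set here beside the shares of all tested genes, 9.7% higher and 21.3% lower. Among 14 tested genes for electron carriers and coenzyme Q synthesis, 1 was higher and 1 lower, with a median log2 ratio of −0.09. The higher gene was CYCS, cytochrome c itself, which rose from 2900 to 4413 counts (1.13, 1.06 to 1.20), and the lower one COQ8B, an atypical kinase of coenzyme Q synthesis, on 69 and 21 counts (−1.17). Of 14 citric acid cycle genes 1 was higher and 0 lower (median 0.48), and the higher one was SUCLG2 (1.02), a subunit of succinyl-CoA ligase.

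Among 49 tested assembly factors outside the NDUFAF genes, 10 were higher (20.4%) and 5 lower (10.2%), against 9.7% and 21.3% over all tested genes, with a median of 0.45. COA7, an assembly factor of complex IV, fell from 1581 to 122 counts (−3.17), and TMEM186 (−2.63) and SDHAF1 (−1.92), which serve complexes I and II, fell on 95 or fewer counts each. TMEM70, which promotes ATP synthase assembly, fell from 448 to 93 counts (−1.74), and TACO1, a translational activator of MT-CO1, from 626 to 156 (−1.48). COX17, the copper chaperone of complex IV, rose from 443 to 997 counts (1.69), and FMC1, which serves complex V, from 125 to 264. Of the 80 tested members that are not assembly factors, ATP5IF1 and COX7A2L included, 47 were higher and 0 lower.

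Of 15 tested regulators of respiratory gene transcription, 0 were higher and 7 lower (46.7%), against 9.7% and 21.3% over all tested genes, with a median of −0.82. PPRC1, a coactivator of the PGC-1 family, fell from 1389 to 94 counts (−3.35), and its relative PPARGC1B from 131 to 18 (−2.30). GABPB1, the partner of the ETS factor GABPA, fell from 642 to 104 counts (−2.09) and NRF1, nuclear respiratory factor 1, from 300 to 70 (−1.57). GABPA itself stood at 0.47 (1808 and 1736 counts), YY1 at −0.29 and TFAM, which packages mitochondrial DNA, at 0.05. TFB2M and MTERF1, which act on mitochondrial transcription, fell by 1.30 and 1.37 on the log2 scale.

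Among other families of small or abundant subunits, 44 of 82 tested cytosolic ribosomal protein genes were higher (53.7%, median 1.05), a share near that of the respiratory chain genes and above the 9.7% over all tested genes. Of these cytosolic genes 2 were lower, against 21.3% over all tested genes. Of 75 tested mitochondrial ribosomal protein genes 5 were higher and 9 lower (median 0.19). Of 44 proteasome subunit genes 4 were higher and 0 lower (median 0.41, against −0.03 over all tested genes). In both of these families the share of higher genes was near the 9.7% over all tested genes. The differences between the families were not tested.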

How the data were processed

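RNA extracted with TRIzol was made into libraries with a kit for polyadenylated RNA, per the labels' protocols. The files deposited by the authors hold whole-number read counts for each gene, without normalization. Trimming (Trimmomatic 0.38), alignment (HISAT2 2.1.0) and counting (featureCounts 1.6.0) on GRCh38 are credited to the submitters' processing notes, which give names and no order. For the annotation release, the strand setting and reads with several positions, the settings were not given in the sources used here, so overlapping genes, antisense genes and near-identical copies may share or lose reads. Libraries were grouped by treatment label.

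Counts were scaled with TMM factors (edgeR 4.0.16, R 4.3.3), computed on genes reaching 30 counts in either library. Log2 ratios have 0.5 added to each count. Their 95% intervals are exact Clopper-Pearson intervals of the THZ1 share of both counts, and since the reads carry no molecular identifiers, intervals and floors (3 counts) cover counting error only. With 1 library per group no test was run. The code that makes the calls was checked on simulated data with known changes, which says nothing about the variation between cultures. Gene structures come from GENCODE 29 and promoters from RefSeq (GRCh38.p14). Of the 99 genes, 36 have over 10% of their exonic bases overlapped by another gene, and 52 have listed pseudogenes, which held 840 counts in DMSO and 528 in THZ1.

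The members and lists were chosen with earlier results of these data known. The values of 1 member are not reported here, though it is included in the counts and medians. Values are given for the 4 highest and 4 lowest ratios of each complex among members with 100 or more counts, the core and F1 subunits, the complex II genes and the isoform pairs. Genes of the pathway lists were named after their values were seen. Other scalings tried were the upper quartile, total counts, size factors from DESeq2 1.42.0, protein-coding genes alone and the mitochondrially encoded mRNAs. Further alternatives were a count minimum of 1 or 100, thinning, 5 counts added, a stricter interval, other member sets and pseudogenes summed with parents. Ratios and intervals were computed in Python 3.11.15 with scipy 1.17.1, numpy 2.4.6 and pandas 2.3.3, and plots drawn with matplotlib 3.10.9.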

Additional observations from a re-analysis of the deposited data

How the results depend on the processing

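With total counts 19 members were higher and 2 lower (NDUFAF4 and NDUFV3), with the mitochondrially encoded mRNAs as scaling 1 was higher and 27 lower, and with a count minimum of 1 there was 1 lower member (NDUFAF4). Leaving out the members with more than 10% of their exonic bases overlapped by another gene, an alternative chosen after seeing the data, left 30 of 58 higher and moved complex V from 12 of 18 to 4 of 10. Leaving out the 2 members that reached 30 counts only through the THZ1 library, also chosen after seeing the data, left 47 of 86 higher. The moves with total counts and with the mitochondrially encoded mRNAs follow from a common shift of all ratios. All 8 complex V members left out for overlap were higher, and the reason for that was not tested. With the other alternatives between 39 and 50 members were higher and 0 lower, with 77 to 89 members tested. Where the interval had to exclude 2-fold 39 of 88 were higher, against 5.38% higher and 15% lower over all tested genes. Without the members with pseudogene counts 39 of 77 were higher. The medians of the members and of the 5 complexes relative to all genes cannot move with the scaling alone. Under the other alternatives run for them they stayed within the order-statistic interval of the medians over genes. That interval treats genes as replicates, and for complex II it is the full range of its 4 genes, so staying within it says little. On the mitochondrial scaling, 37 members that were higher turned below 0, with log2 ratios as follows: ATP5F1C −0.52, ATP5IF1 −0.39, ATP5MC3 −0.68, ATP5ME −0.023, ATP5MF −0.60, ATP5PB −0.46, ATP5PD −0.49, ATP5PF −0.19, ATP5PO −0.15, COX5A −0.22, COX5B −0.44, COX7A2 −0.34, COX7A2L −0.65, COX7B −0.19, COX8A −0.59, NDUFA1 −0.014, NDUFA12 −0.20, NDUFA4 −0.061, NDUFA5 −0.37, NDUFA6 −0.30, NDUFAF2 −0.15, NDUFB3 −0.47, NDUFB4 −0.39, NDUFB5 −0.57, NDUFB6 −0.12, NDUFB8 −0.43, NDUFB9 −0.56, NDUFC1 −0.086, NDUFS4 −0.30, NDUFS5 −0.26, NDUFS6 −0.55, NDUFV2 −0.33, SDHC −0.62, UQCR10 −0.51, UQCR11 −0.50, UQCRH −0.32 and UQCRQ −0.20. No paired analysis was possible because each group had 1 library, and no library could be left out for the same reason. The intervals cover counting error only, and members under 100 counts, such as NDUFV2, are the least precise.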

Other observations

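Transcripts named after members were few. NDUFV2-AS1, annotated antisense to NDUFV2, had 48 counts in DMSO and 24 in THZ1, a log2 ratio of −0.46 with an interval of −1.25 to 0.26, beside 54 and 97 counts of NDUFV2. NDUFA6-DT, which starts next to NDUFA6 on the other strand, had 34 and 31 counts (0.39, −0.36 to 1.14). NDUFB2-AS1 had 18 and 5 counts, UQCRFS1-DT had 1 and 2, and NDUFV1-DT and UQCRB-AS1 had 0 in both libraries.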
